A study of Mus musculus with 6 samples.

Results

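The capillary endothelial nuclei of the mouse tibial periosteum and fracture callus described here were chosen by their transcripts in single-nucleus RNA-seq, in which the unique molecular identifiers (UMIs) of each droplet barcode count captured RNA molecules. A barcode was kept when it held 200 to 5000 genes, under 2% mitochondrial UMIs and under 1.5% ribosomal protein UMIs. A kept nucleus was called capillary when *Kdr*, *Aplnr*, *Adgrl4* and *Rasgrp3* summed to at least 3 UMIs and *Pecam1*, *Cdh5*, *Emcn* and *Flt1* to at least 2. It also had to hold under 3 UMIs of *Vwf*, *Selp*, *Aqp1* and *Lhx6* (venous), under 3 of *Prox1*, *Mmrn1* and *Flt4* (lymphatic), under 2 of *Gja5*, *Sema3g*, *Sox17* and *St8sia6* (arterial) and no UMI of the leukocyte gene *Ptprc*. These limits left 157 capillary nuclei of 8073 nuclei kept and 13551 barcodes in all, which is 1.94% of the nuclei kept and 17.7% of the 888 endothelial nuclei, those with at least 2 UMIs of the pan-endothelial genes and none of *Ptprc*.

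All libraries came from C57BL6 mice (C57BL/6ScNj in the study's methods) of 12 weeks, males and females mixed. The 2 uninjured libraries were made from scraped tibial periosteum of 4 mice, and the post-fracture libraries from periosteum collected with hematoma 3 days (2 libraries), 5 days (1 library) and 7 days (1 library) after an open, non-stabilized tibial fracture, from 4 to 9 mice. Each library is therefore a pool of animals, days 5 and 7 have no replicate, and the tissue collected after fracture is wider than the uninjured tissue, so injury and tissue collected cannot be told apart. The capillary nuclei numbered 13 and 25 before fracture, 9 and 7 on the third day, 89 on the fifth and 14 on the seventh. They held 632633 UMIs together, 16077 to 376816 in a library, out of 1499281 to 29796296 UMIs of all barcodes of a library. With pools as the only replicates, p-values set a difference against the spread between these libraries. With so few libraries, edgeR estimates that spread partly from the other genes tested. Where the 4 post-fracture libraries are taken as 1 group, their spread also holds differences between days. A test with day 5 as its only post-fracture library holds no spread between post-fracture libraries.

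Capillaries are the thin exchange vessels of a tissue, built from a single layer of endothelial cells on a basement membrane of type IV collagen and laminin. *Kdr* encodes VEGF receptor 2, through which VEGF-A drives endothelial growth and sprouting, and *Aplnr* encodes the apelin receptor, a G protein-coupled receptor found on capillary and venous endothelium. In bone, capillaries grow into the fracture callus along with the cartilage and bone that form there, and their endothelial cells signal to skeletal progenitors.

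The 4 capillary genes were not detected equally often, which is given as a description because they chose the nuclei. *Adgrl4*, an adhesion G protein-coupled receptor of endothelium, had a UMI in 149 of the 157 nuclei and gave 59.4% of the UMIs of the set. *Rasgrp3*, an exchange factor for Ras and Rap proteins, had a UMI in 107 nuclei, *Kdr* in 90 and *Aplnr* in 67. All 4 genes were found together in 33 nuclei, and 29 nuclei held UMIs of a single capillary gene, which was *Adgrl4* in 26 of them. The median capillary sum was 8 UMIs (range 3 to 67). The 24 nuclei just inside the limit, with a sum of 3, had a median of 1555 UMIs and a median pan-endothelial sum of 6.5, and the 44 nuclei just outside it, with a sum of 2, had medians of 1281 and 5. Another 153 nuclei reached 3 UMIs in both the capillary and the venous set and were not counted as capillary. Those nuclei were deeper, with a median of 5548 UMIs against 2750 in the capillary nuclei. Whether depth plays a part in who met both limits was not tested.

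The endothelial label was met by genes the rule did not use, with all 22 genes of a pan-endothelial list detected. The level of a gene is given as CPM, its UMIs per 1000000 UMIs summed over the capillary nuclei of a library, and values are listed in the order uninjured, day 3, day 5 and day 7. The list summed to 12475 and 7643 CPM before fracture and to 5882, 8843, 11602 and 10623 CPM after it. Without 7 nuclei rich in muscle transcripts, described below, the second uninjured library held 13237 CPM and the post-fracture libraries 8048, 8843, 11869 and 10581 CPM, all under both uninjured ones. It holds *Tek* and *Tie1*, the angiopoietin receptor and its partner, and the ETS factors *Erg* and *Fli1*, and each of these 4 genes was detected in every library. Among 12 other capillary genes not used by the rule, levels differed widely. *Car4*, a carbonic anhydrase of lung capillaries, had a single UMI, and *Gpihbp1*, which holds lipoprotein lipase on the capillary wall, lay between 0 and 45.5 CPM. In contrast, *Cd36* and *Fabp4* averaged 701 and 459 CPM in the uninjured libraries.

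The share of capillary nuclei among endothelial nuclei was 7.47% (exact 95% binomial interval 4.04 to 12.4) and 8.59% (5.64 to 12.4) in the uninjured libraries. After fracture it was 23.1% (11.1 to 39.3) and 12.5% (5.18 to 24.1) in the day 3 libraries, 34.5% (28.7 to 40.6) for day 5 and 20.0% (11.4 to 31.3) for day 7, so every post-fracture library lay above both uninjured ones. Among all nuclei kept, the shares were 2.02% and 2.12% before fracture and 1.20%, 0.407%, 3.67% and 1.04% at days 3, 3, 5 and 7, with day 5 alone above the uninjured libraries. When every nucleus with at least 1000 UMIs was thinned to that depth, the endothelial shares became 5.32% and 11.7% before fracture. After fracture they became 9.52%, 23.3%, 39.0% and 11.8%, and the groups then overlapped. Kept nuclei under 1000 UMIs were left out, 259 and 208 before fracture and 19, 210, 364 and 512 after it. The thinned shares thus describe a smaller, deeper set of nuclei. Nuclei that reached 3 UMIs in both the capillary and the venous set are not in these shares. They numbered 22 and 73 before fracture and 1, 16, 39 and 2 after it, so the shares depend on the venous limit. The rule itself fixes these counts, so they carry no test, and the intervals cover counting error only.

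**Figure D1:**
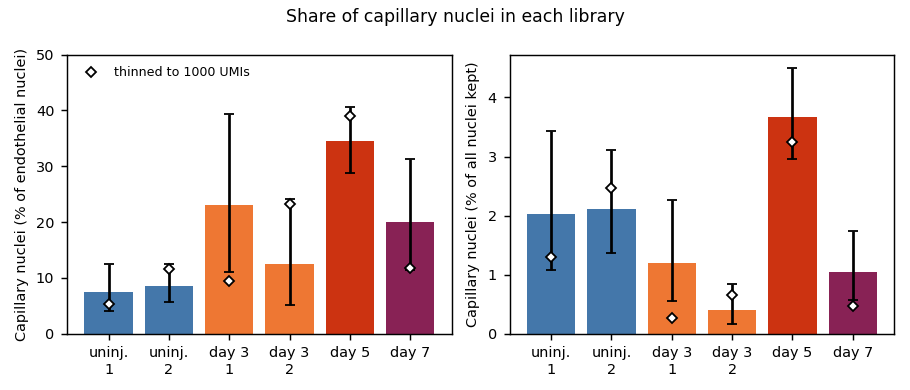
Percent of capillary nuclei among endothelial nuclei (left) and among all nuclei kept (right) in the 6 libraries, as bars with exact 95% binomial intervals. Diamonds are the shares after thinning each nucleus of at least 1000 UMIs to 1000 UMIs, with shallower nuclei left out. Day 5 has the highest share in both panels (34.5% and 3.67%), and the thinned endothelial share of the first day 3 library (9.52%) falls between those of the uninjured libraries.

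A few nuclei weighed heavily on the sums. The 89 nuclei of day 5 gave 59.6% of all UMIs, while the deepest nucleus gave 32.7% and 43.4% of the UMIs of the day 3 libraries. Median UMIs per capillary nucleus were 985 and 3295 before fracture and 3496, 3968, 2935 and 2534.5 after it. The 7 skeletal muscle markers, all detected, summed to 42426 CPM in the second uninjured library, 9796 CPM in the first day 3 library and 374 to 2074 CPM in the other libraries. Of 6002 such UMIs, 5665 lay in 7 nuclei with over 1% muscle UMIs, 3 of them in the second uninjured library, and results are also given without these 7 nuclei, an alternative chosen after seeing the data. Of 8 leukocyte markers besides *Ptprc*, 7 were detected, and they summed to 0 and 8.65 CPM before fracture and 24.1 to 246 CPM after it. The 8 stromal markers, all detected, summed to 406 and 437 CPM before fracture and 277 to 1879 CPM after it, highest at day 5, and the 7 mural markers to 0 to 420.3 CPM. The study removed myogenic contamination, and that step was not applied to the main values here. The part of these transcripts in the results below was not tested beyond the values given without those nuclei. In all, 102 capillary nuclei held at least 3 UMIs of markers of other cell types. Scrublet marked none of the capillary nuclei as a doublet and 0.595% of all nuclei kept. Of 18 barcode sequences shared between libraries, 0 were shared among capillary nuclei. The matrices of the first uninjured, day 5 and day 7 libraries were written by Cell Ranger 6.0.0 and the other 3 by 7.1.0, so the version runs across the groups.

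To ask what differed in the capillary nuclei after fracture, UMIs were summed per library and the 4 post-fracture libraries were compared with the 2 uninjured ones. Of 1217 genes tested, 9 passed an adjusted p of 0.05 in edgeR's quasi-likelihood test (0.74%), 1 of them higher (0.0822%) and 8 lower (0.657%). The lower genes included the nuclear receptors *Nr3c2* and *Rora*, the efflux transporter *Abcg2* and the leptin receptor *Lepr*. Of 14 basement membrane genes, 10 of them tested, 7 lay above both uninjured libraries in all 4 post-fracture libraries. All 7 were among those tested, and none passed the test. Over all genes tested, 19.2% lay above both in this way. The number of genes called depended on the uninjured libraries, being 0 without the second and 63 without the first. It was 1 without the day 7 library, 18 without the first day 3 library and 23 without the 7 nuclei rich in muscle transcripts. Fold changes are post-fracture over uninjured on the log2 scale with their standard errors (SE). Each SE was derived from the test, as the size of the fitted difference over the square root of its F statistic.

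*Col4a1* encodes the alpha 1 chain of type IV collagen, the network-forming collagen of basement membranes. It stood at 249.5 and 251 CPM before fracture and at 937, 1201, 1836 and 1913 CPM after it. All 4 post-fracture libraries lay above both uninjured ones, and the fitted difference was 2.35 ± 0.49 (SE, n = 2 against 4 libraries, adjusted p = 0.065 in edgeR), a fold of 5.11. Without the nuclei rich in muscle transcripts the difference was 2.06 and passed in edgeR (adjusted p = 0.047, range over 15 alternatives 0.0171 to 0.225). The share of capillary nuclei with a *Col4a1* UMI after drawing 500 UMIs from each was 1 of 13 (7.69%) and 4 of 25 (16.0%) before fracture. After it the counts were 4 of 9, 5 of 7, 47 of 89 and 7 of 14. In leukocytes of the same libraries, which should lack the gene, this share was 0 to 3.85% at the same 500 UMIs, over 3 to 797 leukocytes a library. In all non-endothelial nuclei together the gene was at 232 and 151 CPM before and 44.4 to 68.0 CPM after fracture. The make-up of that pool changed, with 3 and 47 leukocytes before and 115, 797, 456 and 78 after fracture. The part of that make-up in the lower level was not tested. Endothelial nuclei of the venous set, given further below, also held more *Col4a1* after fracture.

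The partner chain *Col4a2* was at 62.4 and 294 CPM before fracture and between 867 and 1156 CPM after it (log2 difference 1.92 ± 0.52, adjusted p = 0.115 in edgeR). Both collagen genes lie head to head on chromosome 8 of mm10, *Col4a1* on the minus strand at chr8:11198423-11312826 and *Col4a2* on the plus strand at chr8:11312805-11449287. The laminin chains that assemble into laminin 411, the form typical of endothelium, were low before fracture. *Lama4* had 125 and 363 CPM, against 1265, 819, 1183 and 1106 CPM at days 3, 3, 5 and 7 (1.77 ± 0.51, adjusted p = 0.13 in edgeR). *Lamb1* had 0 and 60.5 CPM, against 281, 737, 257 and 346 CPM (2.74 ± 0.77, adjusted p = 0.118 in edgeR). *Lamc1* had 0 and 268 CPM, against 726, 573, 634 and 829.6 CPM (1.66 ± 0.65, adjusted p = 0.259 in edgeR). Leukocytes of the 5 libraries with 47 or more of them held 143 to 242 CPM of *Lamc1*, with a UMI in up to 8.51% at 500 UMIs, and up to 133 CPM of *Lama4*. The groups did not overlap for any of these 3 chains, but the first uninjured library holds 16077 UMIs, where 3 UMIs already make 187 CPM.

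The multiplexin collagens *Col15a1* and *Col18a1* link the basement membrane to the surrounding matrix and carry angiogenesis-inhibiting fragments at their ends. *Col15a1* was at 0 and 251 CPM before and at 703, 709.6, 645 and 530.0 CPM after fracture (1.65 ± 0.65, adjusted p = 0.259 in edgeR). *Col18a1* was at 125 and 60.5 CPM before and at 141, 409, 525 and 461 CPM after it (2.16 ± 0.64, adjusted p = 0.134 in edgeR). The remaining list members included the perlecan gene *Hspg2*, with 312 and 372 CPM before and 355 to 533 CPM after fracture. The laminin chain *Lamb2* was at 62.4 and 51.9 CPM before fracture and at 0, 0, 40.2 and 46.1 CPM after it. Summed over the 14 genes, the list held 1809 and 2577 CPM before fracture and 6163, 6577, 7755 and 7489 CPM after it. Without the nuclei rich in muscle transcripts the second uninjured library held 4283 CPM and the post-fracture libraries 6577 to 8570 CPM, and the same 7 genes still separated the groups. Among its 10 genes tested, 9 had a positive difference, 7 had an unadjusted p under 0.05 and none passed after adjustment, with a median of 1.71 against 0.06 over all 1217 genes. Over all genes tested, 8.3% had an unadjusted p under 0.05 on the higher side. Levels below both uninjured libraries throughout, as in *Lamb2*, were found for 8.3% as well, although *Lamb2* was itself too low to test.

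**Figure D2:**
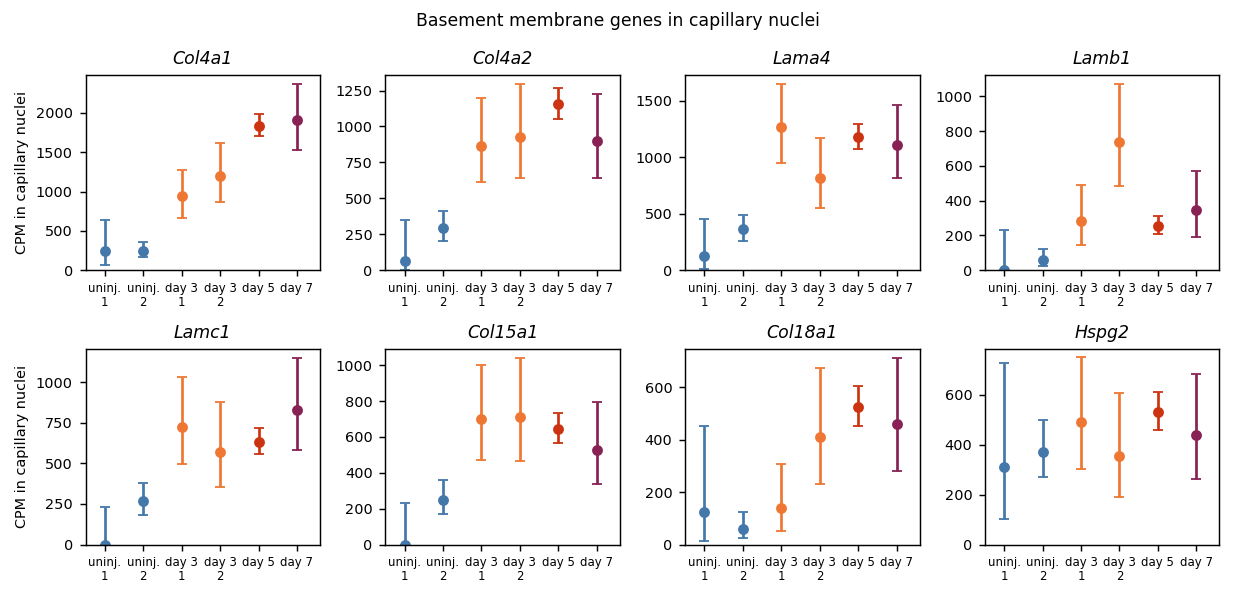
Level of 8 basement membrane genes in the capillary nuclei of each library (CPM, linear axis from 0), as points with exact 95% Poisson intervals for counting error. In all genes but Hspg2 the 4 post-fracture points lie above both uninjured points; Col4a1 reaches 1913 CPM at day 7 from 249.5 and 251 CPM in the uninjured libraries.

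The bases just upstream of *Lamb1* and *Col15a1*, 2 genes of this list that separated the groups, are printed because the groups separated in these genes while their upstream bases differ in motif content. The sequences are from RefSeq on GRCm38.p6, 250 bases before the annotated start on the plus strand, chr12:31265043-31265292 for *Lamb1* and chr4:47207762-47208011 for *Col15a1*. Both strands were searched for each of 3 motifs. The GC box was searched as GGGCGG. The CCAAT box was searched by its own letters and the ETS motif as CCGGAA. Capitals mark the matches, none of which overlap.

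Lamb1: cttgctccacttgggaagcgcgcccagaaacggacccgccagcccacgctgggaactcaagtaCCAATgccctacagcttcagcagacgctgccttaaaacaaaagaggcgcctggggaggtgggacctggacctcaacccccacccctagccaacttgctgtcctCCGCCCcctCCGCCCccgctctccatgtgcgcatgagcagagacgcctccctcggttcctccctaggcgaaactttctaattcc
Col15a1: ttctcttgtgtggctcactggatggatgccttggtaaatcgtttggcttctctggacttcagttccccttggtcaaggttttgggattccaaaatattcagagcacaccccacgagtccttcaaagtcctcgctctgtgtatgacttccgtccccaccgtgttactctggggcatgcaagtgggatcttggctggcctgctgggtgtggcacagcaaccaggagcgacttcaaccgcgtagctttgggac

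The *Lamb1* window holds 2 GC boxes on the minus strand and 1 CCAAT box, at a GC content of 62.0%, and the *Col15a1* window has no match at 53.6% GC. Over all 32851 windows of this length, 32.7% held a GC box, 33.8% a CCAAT box and 12.0% an ETS motif. Among 11 windows of the 10 list genes with an entry, 6 held a GC box, 5 a CCAAT box and 1 an ETS motif. These matches describe letters and are not binding sites.

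Genes of DNA replication and mitosis were low in uninjured capillary nuclei. The 17-gene proliferation list held 125 and 138 CPM before fracture, against 1758, 3794, 1159 and 691 CPM after it. All 4 post-fracture libraries lay above both uninjured ones, and 8 of the 17 genes separated the groups in the same way, none in the other. Only 2 of the 17 passed the filter on low counts, and both were among those 8. Over all genes tested, 19.2% lay above both uninjured libraries throughout and 8.3% below. Those shares do not cover genes too low to test. In nuclei drawn down to 500 UMIs, 1 of 13 and 1 of 25 uninjured nuclei held a UMI of the list, against 3 of 9, 4 of 7, 27 of 89 and 3 of 14 after fracture. At full depth, 1 of 13 and 9 of 25 uninjured nuclei held such a UMI. After fracture, 4 of 9, 6 of 7, 51 of 89 and 8 of 14 nuclei did. Before thinning, 3 or more such UMIs were found in 2 uninjured nuclei and in 35 of the 119 post-fracture nuclei, and nuclei of that kind were deeper, with a median of 5154 UMIs against 2266. A single nucleus gave 44.0% and 52.5% of the list's UMIs in the day 3 libraries.

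*Diaph3*, a formin that drives actin assembly in dividing cells, led the list with 0 and 17.3 CPM before fracture and 328, 655, 289 and 92.2 CPM after it. Its fitted difference of 4.19 ± 1.09 did not pass (adjusted p = 0.111 in edgeR), and rests on 2 UMIs before fracture, for which the ratio of summed UMIs was 19.9 with a 95% counting interval of 5.41 to 166. *Mki67* and *Top2a*, the marker Ki-67 and the topoisomerase of chromosome segregation, had no UMI in the uninjured libraries. After fracture *Mki67* was at 23.4, 300.2, 53.5 and 23.0 CPM and *Top2a* at 211, 191, 109.8 and 0 CPM. Only *Diaph3* and *Pola1*, a DNA polymerase subunit, passed the filter on low counts. *Pola1* was at 62.4 and 86.5 CPM before and at 305, 409, 161 and 115 CPM after fracture.

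**Figure D3:**
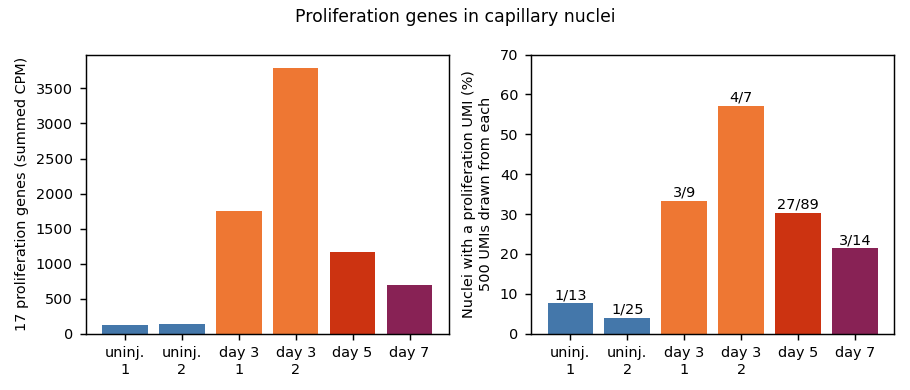
Summed level of the 17 proliferation genes (CPM, left) and percent of capillary nuclei with at least 1 UMI of the list after drawing 500 UMIs from each (right, with counts above the bars), by library. Both measures are highest in the second day 3 library (3794 CPM, 4 of 7 nuclei) and lowest in the uninjured libraries.

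The single gene called higher after fracture was *Gm14005*, a long non-coding RNA gene at chr2:128178319-128502765. It had 0 and 8.65 CPM before fracture and 562, 218, 822 and 599 CPM after it (5.82 ± 0.95, adjusted p = 0.0389 in edgeR, range over 15 alternatives 8.14e-05 to 0.22). It rests on 1 UMI in the uninjured libraries against 365 after fracture, a ratio of 96.9 with a 95% counting interval of 17.3 to 3836. It was not seen in these nuclei alone, standing at 61.2 and 186 CPM before and 183 to 417 CPM after fracture in non-endothelial nuclei.

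The next genes in order did not pass, with adjusted p = 0.065 in edgeR for each. Without the nuclei rich in muscle transcripts *Nox4* (2.39) and *Robo1* (5.13) passed in edgeR (adjusted p = 0.0439 for both), over alternatives that ran from 0.0287 to 0.225 for *Nox4* and from 0.000271 to 0.277 for *Robo1*. *Nox4*, an oxidase that makes hydrogen peroxide, had 62.4 and 86.5 CPM before and 352, 573, 897 and 622 CPM after fracture (2.70 ± 0.55). *Robo1*, the receptor for Slit guidance cues, had 0 and 8.65 CPM before and 117, 218, 672 and 691 CPM after it (5.44 ± 1.16), a ratio of summed UMIs of 78.0 with a counting interval of 13.9 to 3092. It was found in 2 of 9, 1 of 7, 34 of 89 and 6 of 14 post-fracture nuclei. Non-endothelial nuclei of days 5 and 7 held 950.3 and 524 CPM, and leukocytes alone 362 and 202 CPM. *Cald1*, the actin-binding caldesmon, had 125 and 182 CPM before and 609 to 1253 CPM after fracture (2.30 ± 0.50). *Pbx3*, a homeodomain factor, had 62.4 and 104 CPM before and 398 to 901 CPM after it (2.53 ± 0.54). The groups did not overlap for any of these 4 genes, which was a condition for naming them and is no added result. Without the nuclei rich in muscle transcripts 23 genes were called, 7 higher and 16 lower, and 7 of the 23 were also called with all nuclei. Those not named elsewhere were *Schip1*, *Ext1* and *Runx1*, higher. Lower were *Zbtb16*, *H2-K1*, *Eln*, *Osmr*, *Celf2*, *Prkag2*, *Rasgrf2* and *9530026P05Rik*.

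Of the guidance genes, which steer growing vessels as they steer axons, 6 of 16 were tested and none was called. Positive differences numbered 5, that of *Robo1* among them, and the median was 0.61, against 0.06 over all genes tested. The transmembrane semaphorin *Sema6d* was at 0 and 147 CPM before and at 539, 655, 586 and 922 CPM after fracture (2.38 ± 0.64, adjusted p = 0.114 in edgeR). *Ntn1*, a netrin that binds vessel guidance receptors, went the other way. It had 312 and 173 CPM before fracture, 8.03 CPM at day 5 and no UMI in the other 3 libraries. It was too low to test with all nuclei and was called lower without those rich in muscle transcripts, at −5.51.

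Transcription factors of endothelial identity gave no call among 11 tested of 21, with 8 positive differences. Their median was 0.55, against 0.06 over all genes tested. *Ets1*, an ETS factor of vessel sprouting, was at 312 and 372 CPM before and at 797, 737, 932 and 2189 CPM after fracture (1.53 ± 0.56, adjusted p = 0.236 in edgeR). *Tcf4*, an E-box factor and the most abundant of the list, was at 1996 and 2239 CPM before and at 2812, 3930, 6449 and 4471 CPM after it (0.87 ± 0.52, adjusted p = 0.474 in edgeR). From the mesenchymal transition list, *Zeb1*, a zinc-finger repressor, was at 624 and 700.3 CPM before and at 1406, 2538, 2104 and 2719 CPM after it (1.53 ± 0.47, adjusted p = 0.157 in edgeR). The groups did not overlap in these 3 genes. Over all genes tested, 19.2% lay above both uninjured libraries throughout, so this is no added result.

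The VEGF and apelin list had 4 of 10 genes tested, all with positive differences, a median of 0.51 (0.06 over all genes tested) and no call. The VEGF co-receptor *Nrp1* was at 249.5 and 415 CPM before and at 516, 819, 811 and 553 CPM after fracture (0.73 ± 0.43, adjusted p = 0.465 in edgeR). *Apln*, the ligand of the apelin receptor and a tip cell gene, was too low to test, at 0 and 8.65 CPM before and 141, 0, 85.7 and 46.1 CPM after fracture. *Esm1*, another tip cell gene, had UMIs only at day 5, 9 in all. Tip cell genes as a list had 2 of 14 tested and none called. None of the 12 Notch genes, 12 immediate early genes and 16 hypoxia and glycolysis genes passed the filter on low counts.

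*Nr3c2*, the mineralocorticoid receptor, had the smallest adjusted p among the genes called lower. It fell from 686 and 726 CPM before fracture to 23.4, 0, 40.2 and 23.0 CPM after it, with no overlap (−4.74 ± 0.53, adjusted p = 0.00456 in edgeR, higher in 2 of 2 uninjured libraries). Without the nuclei rich in muscle transcripts its level in the second uninjured library was 269.5 CPM and the call was lost (−4.05, adjusted p = 0.0585 in edgeR, range over 13 alternatives 4.29e-07 to 0.209). Non-endothelial nuclei were at 522 and 605 CPM before and 91.6 to 143 CPM after fracture.

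*Rora*, an orphan nuclear receptor of the circadian clock and lipid metabolism, fell from 2246 and 2499 CPM to 211, 136, 597 and 438 CPM (−2.91 ± 0.51, adjusted p = 0.0408 in edgeR). Non-endothelial nuclei held 2097 and 2809 CPM before and 1031 to 1500 CPM after fracture. *Lepr*, the leptin receptor, fell from 998 and 311 CPM to 0, 54.6, 42.8 and 69.1 CPM (−3.95 ± 0.73, adjusted p = 0.0409 in edgeR). *Lepr* is also a marker of marrow stromal cells, and non-endothelial nuclei held 29.7 and 53.3 CPM before fracture, below the capillary nuclei of the same libraries.

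*Abcg2*, a drug and urate efflux pump of capillary walls, fell from 1871 and 657 CPM to 117, 246, 316 and 138 CPM (−2.60 ± 0.50, adjusted p = 0.0491 in edgeR). Its level in non-endothelial nuclei was 116 and 88.9 CPM before and 44.1 to 52.2 CPM after fracture. *Galnt15*, which starts mucin-type O-glycosylation, fell from 686 and 389 CPM to 70.3, 0, 34.8 and 23.0 CPM (−4.05 ± 0.73, adjusted p = 0.0408 in edgeR). Non-endothelial nuclei were at 65.9 and 58.6 CPM before and 1.27 to 2.82 CPM after fracture.

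The other genes called lower were *Lncpint*, a p53-responsive long non-coding RNA, *Cped1* and *Filip1l*. *Lncpint* fell from 998 and 1453 CPM to between 164 and 348 CPM (−2.52 ± 0.40, adjusted p = 0.0389 in edgeR). *Cped1* fell from 1060 and 1764 CPM to between 164 and 422 CPM (−2.62 ± 0.48, adjusted p = 0.0408 in edgeR). *Filip1l* fell from 374 and 1816 CPM to between 46.1 and 145 CPM (−3.62 ± 0.61, adjusted p = 0.0389 in edgeR). Of its 210 UMIs in the second uninjured library 140 came from 1 nucleus, and without the nuclei rich in muscle transcripts that library held 15.0 CPM and the gene was too low to test. Without those nuclei, 6 of the 8 genes remained called lower, all but *Nr3c2* and *Filip1l*. Over 11 to 15 alternatives each, the adjusted p of these 8 genes reached 0.146 to 0.484 at its highest.

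**Figure D4:**
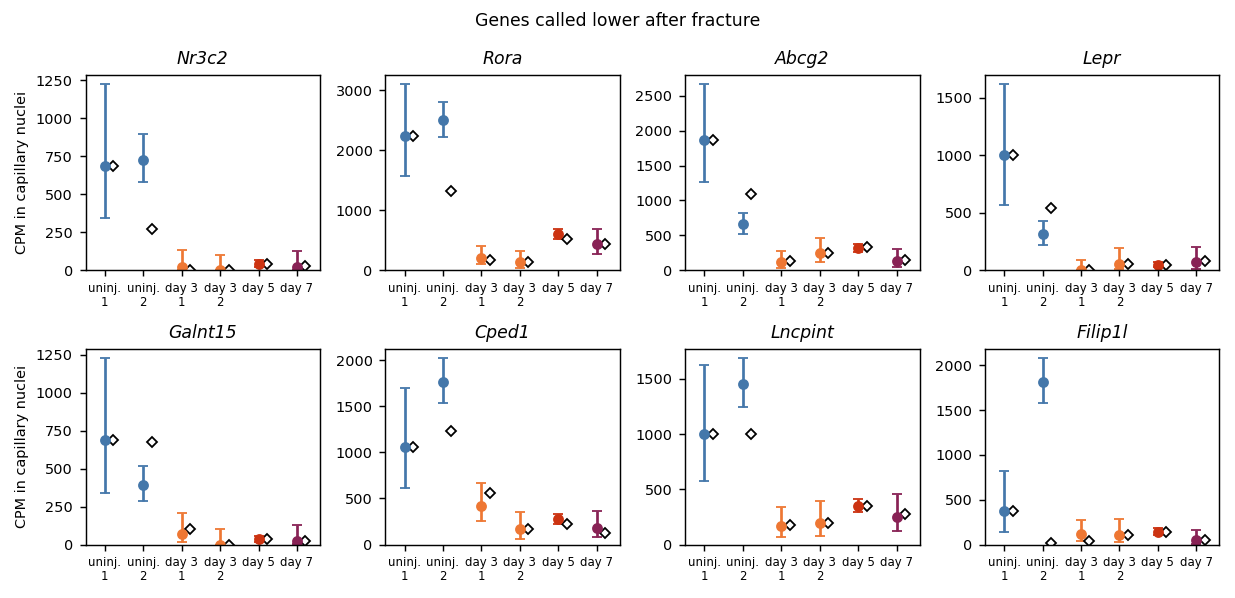
Level of the 8 genes called lower after fracture in the capillary nuclei of each library (CPM, linear axis from 0), as points with exact 95% Poisson intervals; open diamonds are the levels without the 7 nuclei rich in muscle transcripts. Nr3c2 and Rora drop in the second uninjured library without those nuclei (726 to 269.5 and 2499 to 1318 CPM), and Filip1l drops to 15.0 CPM.

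Receptors of inflammatory cytokines did not pass. *Il6st*, the shared gp130 chain of interleukin 6 family receptors, had 998 and 406 CPM before and 234, 246, 193 and 161 CPM after fracture (−1.78 ± 0.47, adjusted p = 0.111 in edgeR), and passed without the nuclei rich in muscle transcripts, at −1.89. *Lifr*, a partner of that chain, had 811 and 182 CPM before and 46.1 to 191 CPM after it, with overlap at day 3. *Il1r1*, the interleukin 1 receptor, had 936 and 268 CPM before and 46.1 to 254 CPM after fracture (−1.70 ± 0.65, adjusted p = 0.259 in edgeR). The activation and adhesion list, which holds *Il6st* and *Il1r1*, had 5 of 17 genes tested and none called.

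Fatty acid handling is a task of muscle and fat capillaries. The fatty acid transport list had 3 of 14 genes tested, all with negative differences and none called. The uptake receptor *Cd36* had 936 and 467 CPM before and 281, 164, 348 and 207 CPM after fracture, without overlap (−1.49 ± 0.45, adjusted p = 0.15 in edgeR). Leukocytes held 241.7 to 488 CPM of *Cd36*, above the capillary nuclei in 2 of the 4 post-fracture libraries. The fatty acid binding protein *Fabp4* had 624 and 294 CPM before and 46.9, 328, 217 and 69.1 CPM after it, with overlap at day 3 (−1.45 ± 0.65, adjusted p = 0.319 in edgeR). *Cd300lg*, a capillary surface receptor, was too low to test, at 187 and 156 CPM before and 23.4, 27.3, 42.8 and 0 CPM after fracture. The list of other capillary genes shares *Cd36*, *Fabp4* and *Meox2* with the fatty acid transport list, so the 2 lists are not separate results. Of the list of other capillary genes, 5 of 12 lay below both uninjured libraries throughout and none above. Only 3 of the 12 passed the filter on low counts, and 1 of these lay below. Over all genes tested, which leave out those too low to test, 8.3% lay below both uninjured libraries and 19.2% above.

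Day 3 was the one time point with 2 libraries, with 9 and 7 capillary nuclei. Against the uninjured libraries, 0 of 806 genes passed in edgeR (0%), with 43 higher (5.33%) and 53 lower (6.58%) at an unadjusted p under 0.05, and DESeq2 called 2. Leaving out 1 library moved the count to 81 without the first uninjured library, 42 without the second, 56 without the first day 3 library and 0 without the second. *Nr3c2* differed by −5.67 ± 0.88, *Rora* by −3.84 ± 0.70 and *Diaph3* by 4.68 ± 0.94 (adjusted p = 0.199 in edgeR for each). *Lamb1* differed by 3.14 ± 0.89 (adjusted p = 0.309 in edgeR), and *Col4a1* by 1.95 ± 0.56 (adjusted p = 0.309 in edgeR). These day 3 libraries are part of the comparison above and share its uninjured libraries, so the values stand side by side only. *Kitl*, the stem cell factor, reached 5240 CPM in the second day 3 library against 303 to 798 in the other 5, with 182 of its 192 UMIs there in 1 nucleus.

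To see how the capillary nuclei differed from other endothelial beds, they were set against venous-set nuclei of the same library, those with at least 3 UMIs of the venous genes and under 3 of the capillary genes. The 2 uninjured libraries and day 5 had at least 10 nuclei of both kinds. Capillary nuclei held more *Rgcc*, *Plcl1*, *Rapgef4* and *Plpp1*, and less of the venous factor *Nr2f2*. Both sets were drawn by marker UMIs in the same nuclei, so genes that follow those markers differ by construction, and the tests below leave out the genes of the rule. With the library as a block, 23 of 1872 genes passed (1.23%), 8 higher (0.427%) and 15 lower (0.801%). The count was 0 without the second uninjured library, 36 without the first and 65 without day 5.

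*Rgcc*, a cell cycle regulator induced in capillary endothelium, was at 312, 129.7 and 214 CPM in the capillary nuclei of the uninjured and day 5 libraries and at 13.1, 11.8 and 0 CPM in the venous set (4.39 ± 0.84, adjusted p = 0.0337 in edgeR, higher in 3 of 3 libraries). It rests on 2 venous UMIs against 100, a ratio of 20.3 with a counting interval of 5.47 to 169.8. *Rapgef4*, a cyclic AMP-activated exchange factor for Rap, was at 312, 337 and 557 CPM against 13.1, 118 and 69.0 CPM (2.60 ± 0.55, adjusted p = 0.0472 in edgeR). *Plpp1*, a phosphatase of lipid mediators, was at 2745, 337 and 559.5 CPM against 235, 141 and 207 CPM (2.22 ± 0.47, adjusted p = 0.0472 in edgeR). These 3 genes remained called without the nuclei rich in muscle transcripts. *Neb*, *Sox6* and *Fgf13* were also called higher, but in the second uninjured library their 4634, 2352 and 1833 CPM became 119.8, 29.9 and 59.9 CPM without those nuclei, and the potassium channel gene *Kcnq5*, also called, went from 519 to 29.9 CPM. *Plcl1*, a phospholipase C-like protein, was at 374, 389 and 803 CPM against 0, 47.1 and 91.9 CPM (3.64 ± 0.61, adjusted p = 0.018 in edgeR), and its second value became 119.8 CPM without those nuclei. *Neb*, *Sox6*, *Fgf13*, *Kcnq5* and *Plcl1* did not pass the filter on low counts without them and so have no call there.

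*Col4a1* was higher in capillary than venous-set nuclei in all 3 libraries, at 249.5, 251 and 1836 CPM against 52.2, 106 and 621 CPM, without passing (1.65 ± 0.40, adjusted p = 0.074 in edgeR). Without the nuclei rich in muscle transcripts it was 1.83 and passed. Of the 9 basement membrane genes tested, 8 had positive differences and none was called, with a median of 0.86 against 0.01 over all genes. The pan-endothelial list leaned the other way, with 11 of 14 tested genes negative, none called and a median of −0.42.

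Among the genes lower in capillary nuclei, *Nr2f2* encodes COUP-TFII, which sets venous identity. It was at 62.4, 25.9 and 185 CPM against 509, 354 and 621 CPM (−2.41 ± 0.50, adjusted p = 0.0467 in edgeR). *Slco2a1*, a prostaglandin transporter, was at 312, 86.5 and 305 CPM against 574, 507 and 1540 CPM (−2.01 ± 0.41, adjusted p = 0.0401 in edgeR). *Meox2*, a homeobox factor of fatty acid-transporting endothelium, was at 686, 311 and 147 CPM against 1553, 1532 and 437 CPM (−1.65 ± 0.36, adjusted p = 0.0479 in edgeR). It belongs, like *Rgcc*, to the list of other capillary genes. Of that list, 5 of 12 genes were tested, with *Rgcc* called higher and *Meox2* called lower in capillary nuclei. *Cmah*, which makes a form of sialic acid, was at 62.4, 112 and 32.1 CPM against 757, 754 and 896 CPM (−3.62 ± 0.52, adjusted p = 0.00962 in edgeR). *Sulf1*, which removes sulfate from heparan sulfate chains, was at 187, 138 and 147 CPM against 1618, 825 and 391 CPM (−2.13 ± 0.41, adjusted p = 0.0359 in edgeR). The others were *Chrm3*, *Myrip*, *Adamts18*, *Adgrg6*, *Cadps2*, *Kirrel3*, *Tll1*, *Pgm5*, *Rbms3* and *St6gal1*.

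Arterial-set nuclei, with at least 2 UMIs of the arterial genes, under 3 of the venous genes and any number of the capillary genes, were compared in the same way in the 2 uninjured, day 5 and day 7 libraries, which had at least 5 nuclei of both kinds. Here 26 of 1694 genes passed (1.53%), 5 higher in capillary nuclei (0.295%) and 21 lower (1.24%). The count was 0 without the second uninjured library and 44 without day 7. Genes lower in capillary nuclei included 2 ephrins. *Efnb2*, the ephrin that marks arteries, was at 62.4, 51.9, 195 and 184 CPM in capillary nuclei against 312, 416, 409 and 906 CPM (−1.93 ± 0.40, adjusted p = 0.0173 in edgeR). *Efna5*, an ephrin anchored to the membrane by a lipid, was at 0, 34.6, 61.6 and 0 CPM against 2612, 2507, 227 and 667 CPM (−4.29 ± 0.65, adjusted p = 0.00237 in edgeR).

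*Bmp6*, a bone morphogenetic protein made by endothelium, was at 187, 51.9, 18.7 and 23.0 CPM in capillary nuclei against 1703, 1342, 145 and 286 CPM in the arterial set (−3.62 ± 0.44, adjusted p = 0.000487 in edgeR). *Sulf1* was at 187, 138, 147 and 23.0 CPM against 1590, 1372, 273 and 1430 CPM (−2.72 ± 0.51, adjusted p = 0.00883 in edgeR). *Cgnl1*, a junction protein, was at 62.4, 60.5, 48.2 and 92.2 CPM against 369, 386, 136 and 286 CPM (−1.96 ± 0.41, adjusted p = 0.0174 in edgeR). Every library had the same direction for these 3 genes. *Bmp6* and *Cgnl1* did not pass the filter on low counts without the nuclei rich in muscle transcripts and so have no call there, while *Sulf1*, *Efnb2* and *Efna5* remained called. *Limch1*, an activator of non-muscle myosin, and *Tshz2*, a zinc-finger factor, were called higher. *Limch1* was at 998, 562, 482 and 576 CPM against 454, 196, 90.8 and 334 CPM (1.55 ± 0.36, adjusted p = 0.0349 in edgeR). *Tshz2* was at 4429, 2741, 2123 and 2120 CPM against 1391, 933, 1626 and 619.7 CPM (1.34 ± 0.31, adjusted p = 0.0323 in edgeR). *Neb* and *Ttn*, both muscle genes, and *Rbfox1*, a splicing factor of muscle and neurons, were also called higher, and none of these 3 was called without the nuclei rich in muscle transcripts.

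**Figure D5:**
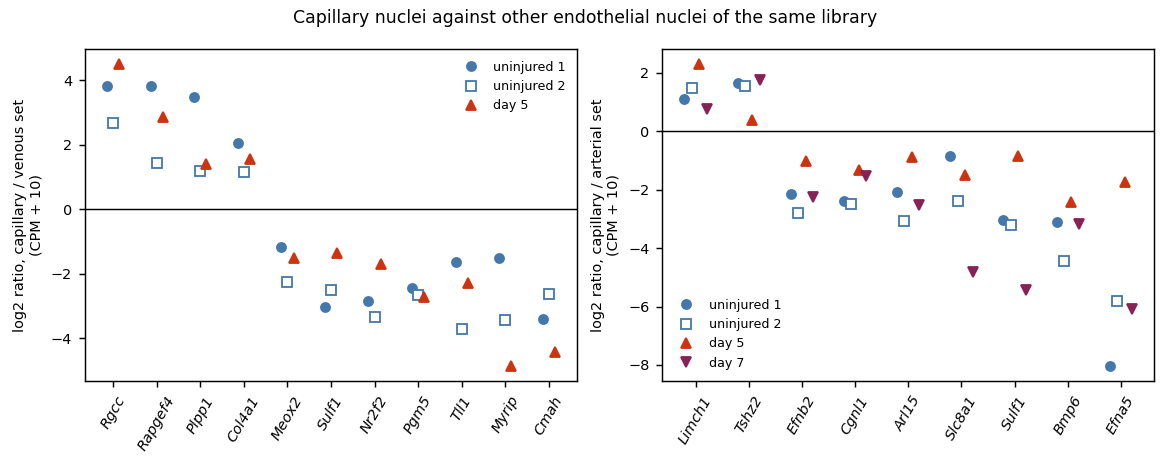
Log2 ratio of the level in capillary nuclei to that in venous-set (left) and arterial-set nuclei (right) of the same library, with 10 CPM added to each level; 1 point per gene and library, and 0 marks equal levels. Every point of Rgcc, Rapgef4, Plpp1 and Col4a1 lies above 0 against the venous set and every point of Nr2f2, Sulf1, Bmp6, Efnb2 and Efna5 below 0 in the panels that show them.

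Whether the change from uninjured to day 5 differed between capillary and venous-set nuclei was tested as an interaction. The fit held the 2 uninjured libraries and 1 post-fracture library, which leaves 1 residual degree of freedom. Its spread is therefore taken mainly from the other genes tested. Of 3784 genes, 2 passed (0.0529%), *Eya4* and *Rnf150*, both with a lower change in capillary nuclei. For *Col4a1* the difference of changes was 0.05 ± 1.34 (adjusted p = 1 in edgeR), and venous-set nuclei held 52.2 and 106 CPM before fracture and 264, 591, 621 and 719 CPM after it. For *Col15a1* it was 3.53 ± 1.36 and for *Robo1* 4.77 ± 1.78 (adjusted p = 1 in edgeR for both). With day 5 as the only post-fracture library in this test, it cannot settle whether the levels of these genes after fracture were particular to the capillary nuclei.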

How the data were processed

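Nuclei of the periosteum and callus were sorted as Sytox-AAD+ and sequenced with the 10x Genomics 3′ v3.1 kit. The authors aligned reads to mm10, intronic reads included, and deposited per library a matrix of UMI counts per gene and barcode, made with Cell Ranger (6.0.0 or 7.1.0 per the file headers). The 30406 genes listed for every library held at least 98.9% of each library's UMIs and were the ones used. The limits on genes, mitochondrial and ribosomal UMIs per nucleus followed the study's. Its removal of myogenic contamination was not applied to the main values, which are given also without nuclei over 1% muscle UMIs. Scrublet (scanpy 1.11.5) was run per library without removing nuclei.

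UMI counts of the 157 capillary nuclei were summed per library and compared with edgeR 4.0.16 (R 4.3.3; filterByExpr, TMM, quasi-likelihood test, Benjamini-Hochberg adjustment over all genes tested, threshold 0.05). The 20 genes of the rule stayed in the fits and were not counted as calls. Levels are CPM with exact Poisson intervals, and intervals cover counting error only. DESeq2 1.42.0 was an alternative. On simulated counts with a log2 change of 3, the comparison of post-fracture with uninjured libraries called 188 of 197 changed genes among 1080 genes. That of day 3 called 156 of 186 among 688. Unchanged genes called numbered 11 and 8. Every simulated gene had the common dispersion of its fit (0.195 and 0.252), with no spread of dispersion between genes and no single deep nuclei. The simulated shares therefore do not give the share of real changes found. Coordinates are from GENCODE release 21 (mm10), and upstream sequences from RefSeq (GRCm38.p6), which held 10 of the 14 basement membrane genes.

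The members and gene lists were chosen with earlier results of these data known. Genes were named by a rule: up to 12 a direction with the largest change among those called with at least 50 CPM and no overlap between groups (or the same direction in every library), filled up to 6 by unadjusted p, plus list genes that were called and the 3 most abundant of each list. *Lamb1*, *Lamc1*, *Col15a1*, *Col18a1*, *Hspg2*, *Lamb2*, *Ets1*, *Ntn1*, *Lifr*, *Cd300lg*, *Mki67*, *Top2a*, *Apln*, *Esm1*, *Car4*, *Gpihbp1* and *Rbfox1* fall partly or wholly outside that rule and were chosen after their values were seen. Genes named only as called without the nuclei rich in muscle transcripts also lie outside it. Alternatives were other scaling, filters, rule limits and libraries left out.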

Additional observations from a re-analysis of the deposited data

Results flagged for a closer look

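The change from the 2 uninjured libraries to the single day 5 library differed between capillary and venous-set nuclei for 2 genes by the interaction test, which has 1 residual degree of freedom. The difference of log2 changes was −11.0 ± 1.95 for *Eya4* (SE, adjusted p = 7.29e-05 in edgeR) and −6.11 ± 1.43 for *Rnf150* (adjusted p = 0.0402 in edgeR). With 1 post-fracture library and no venous-set UMI of *Eya4* before fracture, these values have no replicate check. *Eya4* was at 0 and 830.0 CPM in uninjured capillary nuclei and 56.2 CPM at day 5, against 0, 0 and 252.9 CPM in the venous set. Without the nuclei with over 1% muscle UMIs, its level in the second uninjured library was 59.9 CPM and that of *Rnf150* went from 734.9 to 15.0 CPM, and neither was called.

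Outside the nuclei analysed, 22 barcodes met the limits on marker genes and failed a limit on quality, 8 on mitochondrial UMIs, 15 on ribosomal protein UMIs and 2 on the number of genes, some on more than 1.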

How the results depend on the processing

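After fracture, 9 genes were called. The count was 31 with DESeq2, 148 with no filter on low counts, 1 with a capillary sum of 4 or more and 4 without nuclei holding at least 3 UMIs of other cell types. It was 23 without nuclei over 1% muscle UMIs and 29 without nuclei over 10000 UMIs, both chosen after seeing the data, and 0 to 63 with 1 library left out. For day 3, with 0 called, it was 2 with DESeq2, 34 with no filter and 0 to 81 with 1 library left out.

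Against the venous set, with 23 called, the count was 7 with RLE size factors, 68 with all libraries, 45 with a capillary sum of 4 or more, 58 with no filter, 7 without Scrublet doublets, 9 without nuclei holding other markers and 0 to 65 with 1 library left out. Against the arterial set, with 26 called, it was 1 with all libraries, 52 with no filter, 17 without nuclei rich in muscle UMIs, 1 without nuclei holding other markers and 0 to 44 with 1 library left out. With no replicate block for the library, both counts were 0. For the interaction, with 2 called, the count was 0 with DESeq2 and without nuclei holding other markers, 1 with all libraries, with a capillary sum of 4 or more or with no filter, and 4 without nuclei rich in muscle UMIs, sharing 0 with the first 2. Leaving out a library was not run there.

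Thinned to 1000 UMIs, the share of capillary nuclei in the first day 3 library was 0.272% of nuclei kept and 9.52% of endothelial nuclei. That of day 7 was 0.477% of nuclei kept. Nuclei under 1000 UMIs were left out of these thinned shares. Of 851 values of named genes and lists under the alternatives, 0 reversed direction, 165 fell below the threshold and 49 passed it. The genes were named for groups without overlap or for the same direction in every library, which left little room to reverse. A gene too low to test under an alternative has no value there, so calls lost in that way are not counted. The list medians have no threshold to cross. The causes of these differences were not tested. No paired analysis was possible between uninjured and post-fracture libraries because their replicate numbers only follow accession order. Depth limits low genes, since 3 UMIs make 187 CPM in the first uninjured library and 8.03 CPM at day 5.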
